A study of Mus musculus with 2 samples.

Results

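The genes described here are Pparg, Rxra, Plin2, Fabp4, Fabp5, Cpt1a and Pdk4. These are 7 of the 31053 gene identifiers counted in 2 single-cell libraries, and they were chosen by name as a nuclear receptor pair and its fatty acid genes. Levels were taken by library and in cells with and without UMIs of the uroplakin genes, where a UMI (unique molecular identifier) stands for 1 captured RNA molecule. A cell entered with more than 800 genes detected and no more than 12% mitochondrial UMIs.

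The libraries came from organoids of normal mouse urothelium, the lining of the bladder, grown in Matrigel from wild-type (WT) C57BL/6 mice of 8 to 10 weeks of age. Proliferative organoids (P) were kept in complete medium, which held EGF, WNT3A, RSPO1, Noggin and the TGF-β receptor inhibitor LY2157299. Differentiated organoids (D) had a week in that medium and were then held for a further week without those 5 components. Both groups share strain, genotype, gel and enzymatic dissociation. Each group is 1 library, so no difference between P and D had a replicate check and no test was run. Levels are counts per 1000000 UMIs (CPM), and the 95% intervals given with them, as with ratios and shares of cells, cover counting error only.

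PPARγ, the product of Pparg, is a nuclear receptor that binds DNA as a heterodimer with RXRα, the product of Rxra, and is opened to coactivators by fatty acids and their derivatives. In fat cells the pair drives lipid storage, and in the urothelium it is known for a part in the differentiation of luminal cells, which are marked by uroplakins, the proteins of the apical plaque. Its textbook targets, shared in part with the related receptors PPARα and PPARδ, coat lipid droplets, carry fatty acids in the cytoplasm, admit them to mitochondria and hold back the burning of glucose.

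The P library kept 6818 of 8194 barcodes with 26681469 UMIs, and the D library 4896 of 6975 with 20305621. Median depths were 3405.5 and 3227.5 UMIs a cell, and 10 barcodes were shared by the libraries, 6 of them kept. The labels matched the uroplakins, since all 5 were at least 2-fold higher in D, while 8 of 12 proliferation genes were at least 2-fold lower there. Uroplakin UMIs were found in 303 cells of P (4.44%) and in 2849 cells of D (58.2%). Several other properties moved with the library. The share of UMIs from ribosomal protein genes was 37.4% in P against 21.4% in D, and the median gene was 0.42 higher in D on the log2 CPM scale (8939 genes). Of all barcodes, 5.81% in P and 27.3% in D had over 12% mitochondrial UMIs, 11 of 12 hypoxia genes were at least 2-fold lower in D, and 5 of 8 early response genes were at least 2-fold higher. Single markers of other cell types were also higher in D, with Dcn at 1.499 CPM in P and 60.8 CPM in D, Acta2 at 1.05 and 41.2 CPM and Laptm5 at 0.262 and 19.7 CPM. Most markers of the same lists were close to absent. In each library 6 of 7 fibroblast and 3 of 4 smooth muscle markers had under 20 UMIs. Of 8 leukocyte markers 7 in P and 6 in D did, and Cd68 was lower in D, at 20.4 CPM in P and 6.50 CPM in D. The part of these shifts in the results below was not tested.

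Of the 7 genes, 5 had the 100 UMIs over both libraries that were asked for a call. Pparg, Plin2 and Cpt1a were at least 2-fold higher in D, a size reached by 13.5% of the 10719 genes with enough UMIs. Fabp5 was at least 2-fold lower, as 4.73% of those genes were, and Rxra was higher by less than 2-fold. Fabp4 was too low for a call and Pdk4 was close to absent from the counts. Under both other scalings of the libraries the ratio of Plin2 was below 2-fold (log2 0.76 and 0.67). Pparg, and on few UMIs Fabp4, were higher in cells with uroplakin UMIs in both libraries, while Fabp5 was lower with them in P and higher in D. The ratios of Rxra and Plin2 by uroplakin content had intervals that included 0 in both libraries, as did that of Cpt1a in P, and Cpt1a was slightly higher with uroplakin UMIs in D.

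For the 3 members that were at least 2-fold higher in D, the bases before starts annotated in RefSeq are shown. They are shown because PPARγ and its partner bind copies of the letters AGGTCA. RefSeq promoters (build GRCm38.p6) were at hand for 5 of the 7 genes, at 8 starts. These starts can differ from the ends of the gene spans given below. The stretches of Cpt1a and of the second and last Pparg starts lie inside those spans, and that of the first Pparg start crosses the start of its span. The stretches below are the 250 bases before a start, 5′ to 3′ on the gene's strand, and capitals mark AGGTCA or, for a match on the other strand, TGACCT.
Pparg, first start, chr6:115360894-115361143, plus strand: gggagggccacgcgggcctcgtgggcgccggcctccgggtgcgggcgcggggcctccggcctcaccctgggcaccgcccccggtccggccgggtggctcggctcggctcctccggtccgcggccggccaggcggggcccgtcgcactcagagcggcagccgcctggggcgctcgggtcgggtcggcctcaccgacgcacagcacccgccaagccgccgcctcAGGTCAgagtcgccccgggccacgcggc
Pparg, second start, chr6:115362099-115362348, plus strand: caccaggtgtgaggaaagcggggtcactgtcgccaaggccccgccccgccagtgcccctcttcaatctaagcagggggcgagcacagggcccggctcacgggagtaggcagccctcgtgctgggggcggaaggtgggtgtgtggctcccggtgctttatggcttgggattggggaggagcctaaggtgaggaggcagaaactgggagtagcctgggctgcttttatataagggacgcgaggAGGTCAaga
Pparg, last start, chr6:115421816-115422065, plus strand: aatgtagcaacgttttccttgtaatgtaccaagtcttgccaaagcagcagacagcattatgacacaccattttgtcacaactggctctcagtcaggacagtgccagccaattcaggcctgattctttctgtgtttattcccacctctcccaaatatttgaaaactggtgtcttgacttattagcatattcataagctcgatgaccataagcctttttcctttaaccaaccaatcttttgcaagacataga
Plin2, chr4:86670060-86670309, minus strand: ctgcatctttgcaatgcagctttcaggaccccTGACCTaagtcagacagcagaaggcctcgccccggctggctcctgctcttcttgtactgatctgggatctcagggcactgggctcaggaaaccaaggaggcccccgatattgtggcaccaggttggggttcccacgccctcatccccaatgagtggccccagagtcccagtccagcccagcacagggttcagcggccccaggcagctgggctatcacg
Cpt1a, chr19:3323051-3323300, plus strand: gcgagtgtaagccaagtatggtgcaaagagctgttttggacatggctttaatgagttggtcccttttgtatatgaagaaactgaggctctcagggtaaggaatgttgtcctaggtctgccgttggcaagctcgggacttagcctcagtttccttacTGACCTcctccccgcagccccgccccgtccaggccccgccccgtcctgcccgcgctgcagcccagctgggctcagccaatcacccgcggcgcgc
A match stood 28 bases before the first start of Pparg and 9 before the second, with none before the last, 218 before that of Plin2 and 94 before that of Cpt1a. In all, 5 of the 8 stretches held AGGTCA on either strand, as did 14.0% of 32851 promoters of the same length. The 5 stretches belonged to 4 of the 5 genes, but a gene can have several starts, so the 14.0% is no share of genes. Whether the members differ from other promoters was not tested. Direct repeats, AGGTCA followed after any 1 base by AGGTCA on either strand, were in 11 promoters (0.0335%), none of them a member's. Such a match of letters is a description of the sequence and does not show that a factor was bound.

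Pparg (ENSMUSG00000000440) lies on the plus strand of chromosome 6, 115360951 to 115490399. It was counted 326 times in P, or 12.2 CPM (10.9 to 13.6), and 665 times in D, or 32.7 CPM (30.3 to 35.3). The level in D was 2.68-fold higher (2.34 to 3.07), a log2 ratio of 1.42 (1.23 to 1.62), which stood 1.001 above the shift of the median gene. The counting intervals of the libraries did not overlap.

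Within each library, Pparg was higher in cells with uroplakin UMIs. In P it was at 30.5 CPM (22.7 to 40.0) in cells with uroplakin UMIs and at 11.0 CPM (9.74 to 12.4) in cells without, a log2 ratio of 1.47 (1.01 to 1.91). In D the corresponding levels were 42.5 CPM (39.2 to 46.1) and 10.5 CPM (8.10 to 13.4), a log2 ratio of 2.02 (1.65 to 2.41). Pparg was thus the 1 of 4 tested members at least 2-fold higher with uroplakin UMIs in P (2.25% of 6356 genes were) and 1 of 2 among 5 in D (3.73% of 9398 genes). Cells with uroplakin UMIs were deeper, with medians of 4376 against 3378 UMIs in P and 3714 against 2696 in D.

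Compared between the libraries in cells without uroplakin UMIs, Pparg was at 11.0 CPM in P and 10.5 CPM in D, a log2 ratio of -0.07 (-0.48 to 0.33), although the median gene was 0.49 higher in these cells of D. In cells with uroplakin UMIs it was 0.48 higher in D on the log2 scale (0.07 to 0.92), where the median gene was 0.15 higher. Of the Pparg UMIs in D, 90.2% (87.7 to 92.4) were in cells with uroplakin UMIs, which carried 69.5% of all UMIs.

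**Figure D1:**
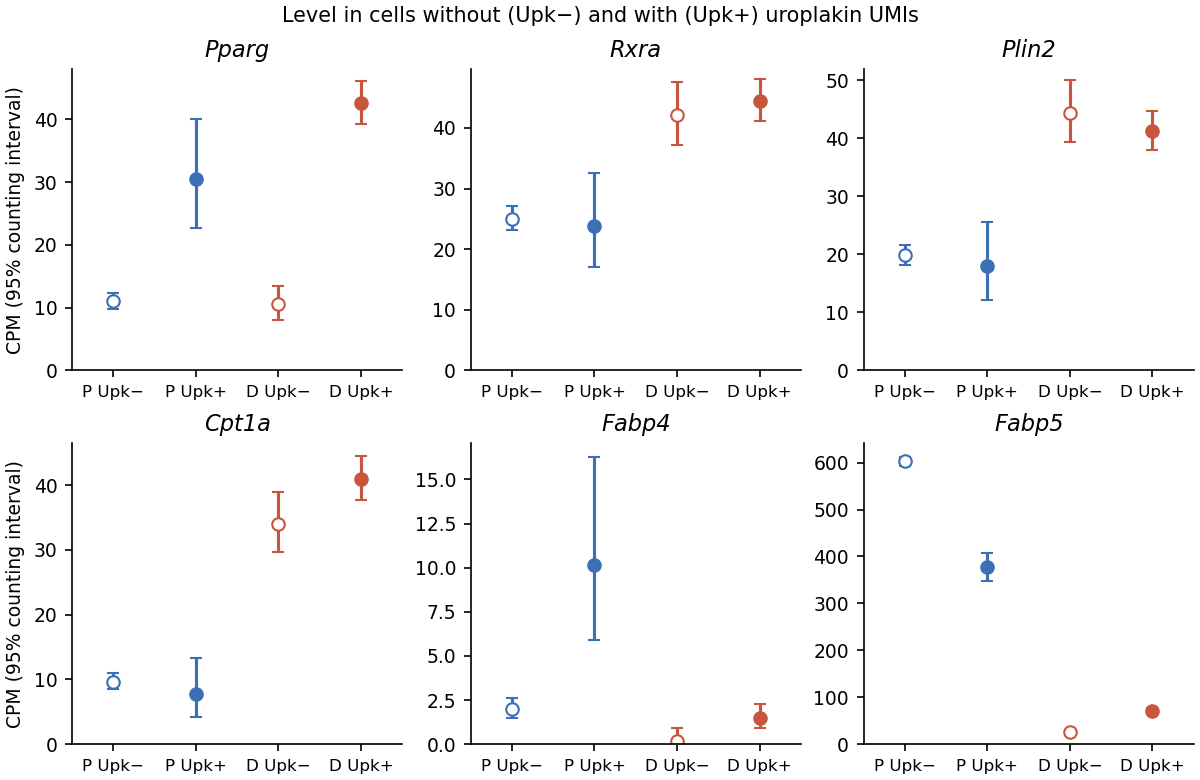
Level of 6 members (CPM, linear axis from 0, a scale of its own for each gene) in cells without (open, Upk−) and with (filled, Upk+) uroplakin UMIs of the P (blue) and D (red) libraries, with 95% counting intervals. Pparg stands at 11.0 and 10.5 CPM in the cells without and at 30.5 and 42.5 CPM in those with uroplakin UMIs, while Rxra, Plin2 and Cpt1a are higher in D than in P in both kinds of cells.

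At equal depth, with each cell thinned to 2100 UMIs, Pparg was higher in each step of uroplakin content in D. It stood at 12.3 CPM (9.21 to 16.1) in 2053 cells with no uroplakin UMI, at 27.1 CPM (19.7 to 36.2) in 792 cells with 1, and at 47.3 CPM (36.9 to 59.6) in 715 cells with 2 to 3. Cells with 4 to 7 uroplakin UMIs (509 cells) had 58.0 CPM (44.5 to 74.4), and cells with 8 or more (348 cells) had 67.0 CPM (49.6 to 88.6). The first 3 levels had intervals apart from each other, and each of the last 3 overlapped its neighbour. In P the same order was seen over fewer cells, with 10.2 CPM (8.60 to 12.1) in 6467 cells with none, 36.9 CPM (17.7 to 67.9) in 129 cells with 1 and 79.4 CPM (31.9 to 164) in 42 cells with 2 or more, the last level resting on 7 UMIs.

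**Figure D2:**
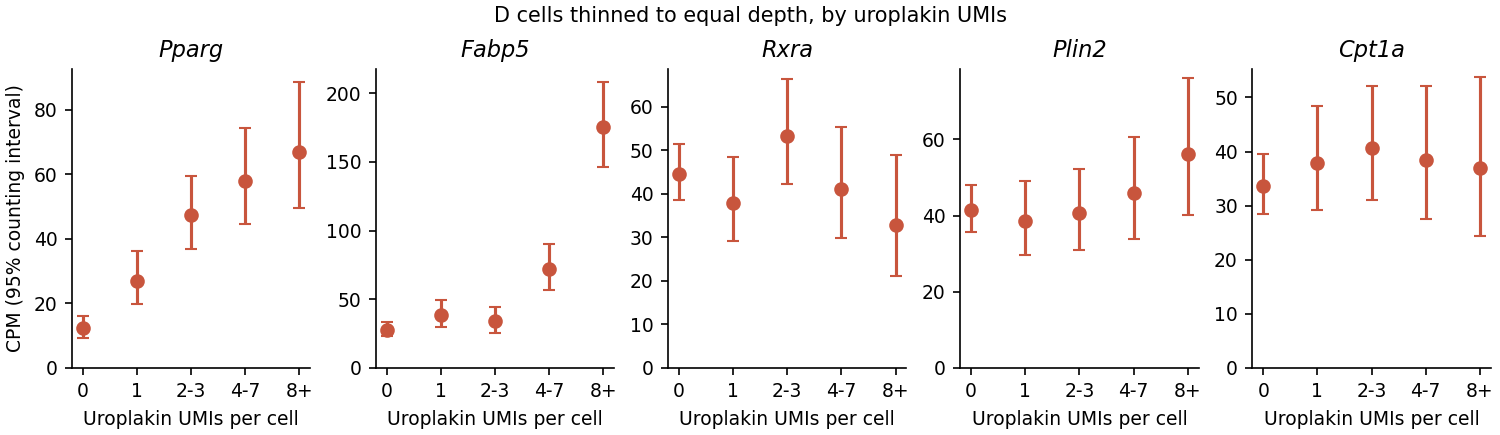
Level of 5 members (CPM, linear axis from 0, a scale of its own for each gene) in D cells thinned to 2100 UMIs, by the number of uroplakin UMIs left in the cell, with 95% counting intervals. Pparg is higher at each step, from 12.3 to 67.0 CPM, Fabp5 is at its highest in the last bin, 175 CPM, and the intervals of Rxra, Plin2 and Cpt1a overlap across neighbouring bins.

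Seen from the other side, 80.0% (74.6 to 84.7) of the 260 thinned D cells with a Pparg UMI held uroplakin UMIs, against 51.9% (50.3 to 53.4) of those without. In P the shares were 9.40% (5.23 to 15.3) of 149 cells and 2.42% (2.06 to 2.82). A Pparg UMI itself was found in 2.24% (1.90 to 2.63) of thinned P cells and 5.89% (5.21 to 6.62) of thinned D cells, and in 4.33% and 10.9% before thinning. No cluster was of a cell type expected to lack these genes, so the share that free RNA gives could not be set beside any of the shares of cells with a UMI.

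Each library was also clustered on its own, with the 7 genes and their related lists kept out of the features. The 4 clusters of P were led by Nbl1, Dll1 and Dlk2 (P0, 2582 cells), by Sprr2f, Psca and Calml3 (P1, 2431 cells), by Fmo2, Slc7a11 and Agr2 (P2, 1452 cells) and by the mitosis genes Hmmr, Nusap1 and Ccnb1 (P3, 353 cells). In P1, 8 of 9 squamous markers were at least 2-fold above the rest of the library, and 8 of 9 intermediate markers were raised. The 3 clusters of D were led by Krt1, Lgi2 and Agr2 (D0, 2775 cells), by Acta2, Cav1 and Htra1 (D1, 1312 cells) and by Ppbp, Krt23 and Upk3b (D2, 809 cells). In D1, 4 of 7 basal markers and 7 of 10 detected proliferation markers were at least 2-fold above the rest of the library. All 10 of the latter were raised, as was 1 of 9 intermediate markers. Thinned cells with uroplakin UMIs made up 95.7% of D2, 57.5% of D0, 11.4% of D1, 5.63% of P1 and under 1.2% of the other clusters of P.

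Pparg was highest in D2, at 63.9 CPM (56.8 to 71.7), followed by D0 at 30.8 CPM (27.7 to 34.2) and P1 at 21.7 CPM (19.2 to 24.5). These intervals did not overlap. P2 followed at 6.77 CPM (4.72 to 9.42), and its interval overlapped those of P3 (3.74 CPM) and D1 (3.64 CPM), with P0 lowest at 2.93 CPM. Within P1, the 246 cells with uroplakin UMIs had 35.2 CPM (26.2 to 46.3) and the 2185 without had 19.9 CPM (17.3 to 22.7), a log2 ratio of 0.82 (0.35 to 1.27). Within D0 the levels were 34.5 CPM (30.7 to 38.6) in 1872 cells and 19.1 CPM in 903, a log2 ratio of 0.85 (0.43 to 1.30). The difference by uroplakin content thus kept its direction inside both clusters. The ratio in D0 had an interval below that over all D cells (1.65 to 2.41), while that in P1 overlapped the interval over all P cells (1.01 to 1.91). All 51 Pparg UMIs of P cells with uroplakin UMIs were in P1.

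**Figure D3:**
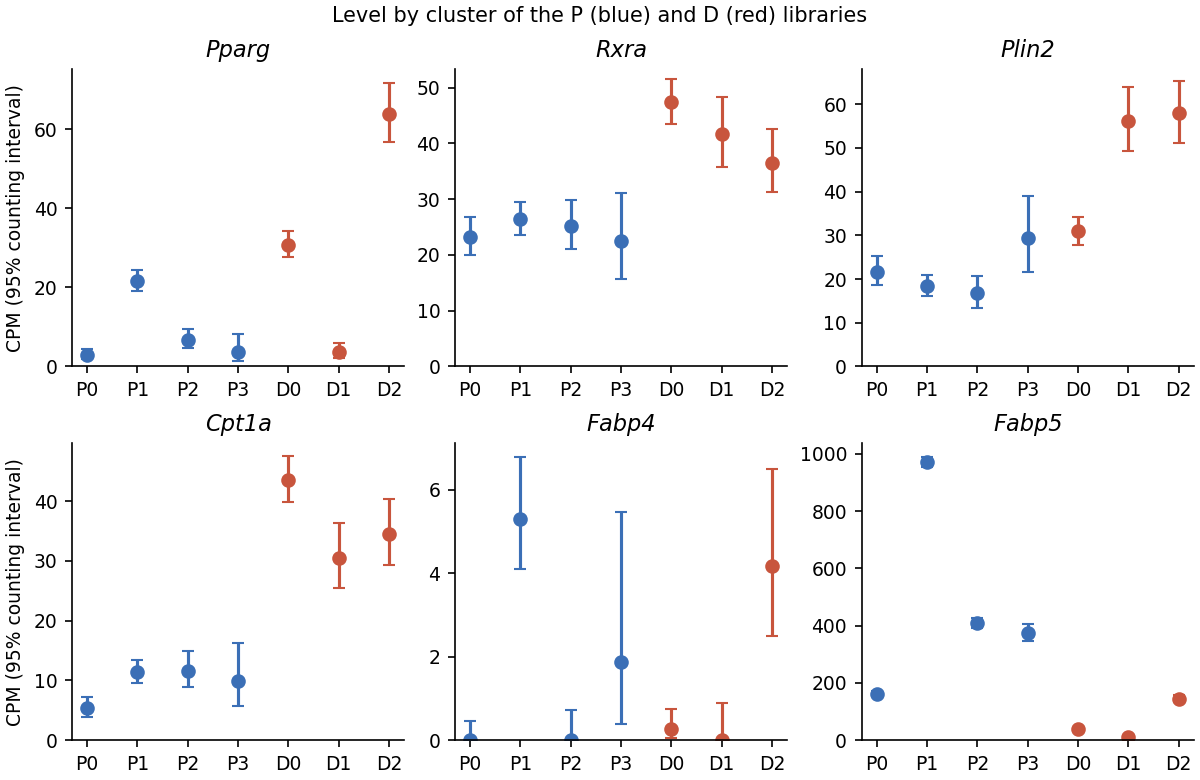
Level of 6 members (CPM, linear axis from 0, a scale of its own for each gene) in the 4 clusters of P (blue) and the 3 of D (red), with 95% counting intervals. Pparg peaks in D2 at 63.9 CPM and Fabp5 in P1 at 971 CPM, while Rxra and Cpt1a are higher in all 3 clusters of D than in all 4 of P. Levels are not scaled by the median gene, which is 0.42 higher in D on the log2 scale.

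Rxra (ENSMUSG00000015846), on the plus strand of chromosome 2, 27676440 to 27762957, encodes the partner receptor. It was at 24.96 CPM (23.1 to 26.9, 666 UMIs) in P and 43.8 CPM (41.0 to 46.8, 889 UMIs) in D, a log2 ratio of 0.81 (0.66 to 0.96) that stood 0.39 above the median gene. The intervals were apart, but the ratio did not reach 2-fold. Unlike Pparg, Rxra was level with respect to uroplakins. Cells with and without uroplakin UMIs had 23.9 and 25.03 CPM in P, a log2 ratio of -0.07 (-0.57 to 0.39), and 44.5 and 42.1 CPM in D, 0.08 (-0.13 to 0.29). Its order by cluster was D0 (47.4 CPM), D1 (41.7), D2 (36.5), P1 (26.4), P2 (25.2), P0 (23.2) and P3 (22.4). Neighbours in this order had overlapping intervals except D2 (31.2 to 42.5 CPM) and P1 (23.5 to 29.4). In CPM, all clusters of D were therefore above all clusters of P. The median gene was itself 0.42 higher in D on the log2 scale, and cluster levels were not scaled by it. D2, where Pparg was highest, was the lowest of D, with an interval below that of D0 (43.5 to 51.5). In thinned D cells, 6.15% (3.56 to 9.80) of those with a Pparg UMI had an Rxra UMI and 8.80% (7.96 to 9.71) of those without.

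Among the other receptors that could bind DNA with or beside this pair, none differed by 2-fold. Ppard, the gene of the broadly expressed PPARδ, was at 20.3 CPM in P and 23.1 CPM in D, and Rxrb, a second partner receptor, at 22.1 and 22.2 CPM. Ppara gave 29 UMIs in P and 35 in D, Nr1h3 gave 5 and 1, and Rxrg none in either library. Nr1h2, an oxysterol receptor, was at 28.3 and 34.3 CPM, and the retinoic acid receptors Rara, Rarb and Rarg at 9.11, 4.91 and 35.2 CPM in P and 11.9, 8.62 and 47.4 CPM in D. The log2 ratio of Rarb, 0.81 (0.48 to 1.15), was as large as that of Rxra. Of the 9 partner receptors listed, 6 had enough UMIs, and 0 were at least 2-fold different in either direction.

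Plin2 (ENSMUSG00000028494), on the minus strand of chromosome 4, 86648386 to 86670060, encodes a coat protein of lipid droplets. It was at 19.7 CPM (18.1 to 21.5, 526 UMIs) in P and 42.2 CPM (39.4 to 45.1, 856 UMIs) in D, 2.14-fold higher (1.92 to 2.39), with a log2 ratio of 1.10 (0.94 to 1.26) that stood 0.67 above the median gene. Uroplakin content made no difference beyond the counting intervals, with a log2 ratio of -0.15 (-0.73 to 0.39) for P cells and of -0.11 (-0.32 to 0.10) for D cells. The difference between the libraries was 1.16 (0.94 to 1.38) on the log2 scale in cells without uroplakin UMIs and 1.20 (0.67 to 1.78) in cells with them. These stood 0.67 and 1.05 above the median gene of the same cells. By cluster, Plin2 was highest in D2 (58.0 CPM, 51.2 to 65.4) and D1 (56.2 CPM, 49.2 to 63.9), which overlapped, although D1 had the lowest Pparg of D. D0 stood below both at 30.9 CPM (27.8 to 34.3) and overlapped the mitosis-led P3 (29.3 CPM, 21.5 to 39.0). P0 (21.7 CPM), P1 (18.4) and P2 (16.8) followed, each overlapping its neighbour.

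Cpt1a (ENSMUSG00000024900), on the plus strand of chromosome 19, 3322334 to 3385733, encodes the enzyme that couples long-chain fatty acids to carnitine for entry into mitochondria. It had the highest ratio of the 7 genes, with 9.56 CPM (8.42 to 10.8, 255 UMIs) in P and 38.9 CPM (36.2 to 41.7, 790 UMIs) in D, 4.07-fold higher (3.53 to 4.71). The log2 ratio of 2.03 (1.82 to 2.23) stood 1.60 above the median gene. It was 1.82 (1.54 to 2.09) in cells without uroplakin UMIs and 2.40 (1.62 to 3.32) in cells with them, the last resting on 13 UMIs in P. These stood 1.32 and 2.25 above the median gene of the same cells. Within D, Cpt1a was at 41.0 CPM in cells with and 34.1 CPM in cells without uroplakin UMIs, a log2 ratio of 0.27 (0.04 to 0.50), and within P at 7.76 and 9.68 CPM, -0.32 (-1.25 to 0.48). Its order by cluster was D0 (43.6 CPM, 39.9 to 47.6), D2 (34.6, 29.4 to 40.4), D1 (30.5, 25.4 to 36.4), P2 (11.6, 8.86 to 14.9), P1 (11.4), P3 (9.98, 5.70 to 16.2) and P0 (5.35, 3.86 to 7.24). Only D1 and P2 were neighbours with intervals apart.

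Pdk4 (ENSMUSG00000019577), on the minus strand of chromosome 6, 5483351 to 5496309, encodes a kinase that shuts off pyruvate dehydrogenase when fatty acids are burnt. It gave 1 UMI in P and 0 in D, where a count of 0 allows up to 0.148 CPM (3 UMIs), so no fold could be given. Pdk1, a kinase of the same family that also stands in the list of hypoxia genes, was at 63.3 CPM in P and 24.9 CPM in D, a log2 ratio of -1.34 (-1.49 to -1.20).

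Fabp5 (ENSMUSG00000027533), on the plus strand of chromosome 3, 10012548 to 10016607, encodes the fatty acid binding protein of epidermis. It was by far the most counted member, with 15699 UMIs in P, or 588 CPM (579 to 598), and 1170 in D, or 57.6 CPM (54.4 to 61.0). The level in D was 10.2-fold lower (9.62 to 10.8), a log2 ratio of -3.35 (-3.44 to -3.27). Its UMIs in P were unevenly spread, since the 10% of cells with the most held 65.6% of them and 1 cell held 180, while 49.5% of cells had at least 1. The counting intervals do not cover this unevenness between cells. In D, 12.8% of cells had a UMI and the highest count in a cell was 19. At equal depth these shares were 38.6% (37.5 to 39.8) and 7.40% (6.65 to 8.22).

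The relation of Fabp5 to uroplakins had opposite directions in the libraries. In P it was at 377 CPM (348 to 407) in cells with and 603 CPM (593 to 612) in cells without uroplakin UMIs, a log2 ratio of -0.68 (-0.79 to -0.56). In D it was at 71.7 CPM (67.4 to 76.3) with and 25.5 CPM (21.7 to 29.8) without, a log2 ratio of 1.49 (1.25 to 1.74). The difference between these directions was not tested. By class, D was below P by a log2 ratio of -4.56 (-4.80 to -4.34) without and -2.39 (-2.54 to -2.25) with uroplakin UMIs. Against the median gene of the same cells these were -5.05 and -2.55.

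By cluster, Fabp5 was highest in P1, the cluster with squamous markers, at 971 CPM (953 to 989), followed by P2 at 408 CPM (391 to 426) and P3 at 376 CPM (347 to 407), which overlapped. P0 at 162 CPM (153 to 171) overlapped D2 at 145 CPM (134 to 156), and D0 at 39.5 CPM (36.0 to 43.3) and D1 at 12.1 CPM (8.99 to 16.0) were lowest. Inside P1, cells with uroplakin UMIs had 415 CPM (382 to 449) and cells without had 1047 CPM (1028 to 1067), a log2 ratio of -1.34 (-1.46 to -1.22). Inside D0 the ratio was -0.21 (-0.51 to 0.10), so the higher level with uroplakins over all D cells was not seen there. In the thinned D cells Fabp5 stood at 27.8, 38.5 and 34.0 CPM with 0, 1 and 2 to 3 uroplakin UMIs, with overlapping neighbours, and was higher with 4 to 7 (72.0 CPM, 56.9 to 90.03) and with 8 or more (175 CPM, 146 to 208).

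**Figure D4:**
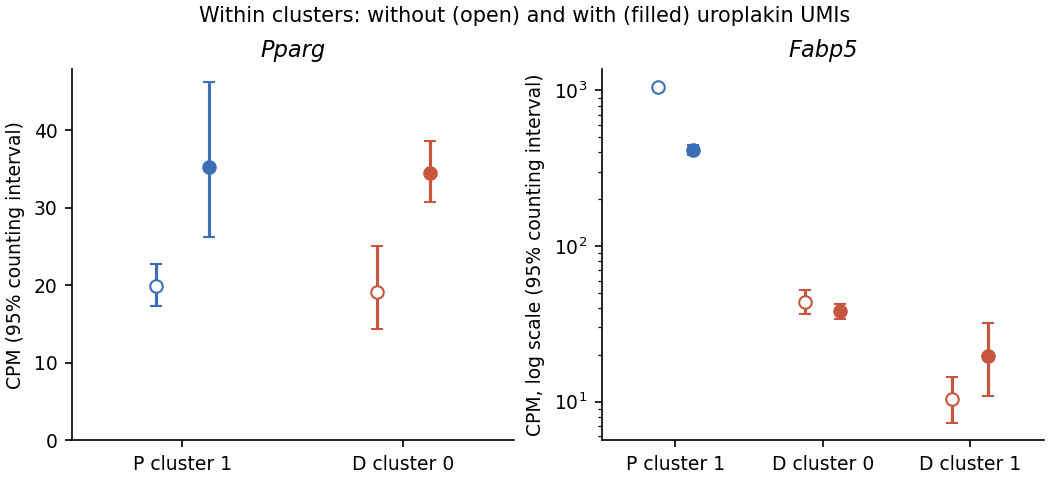
Level (CPM) of Pparg (linear axis from 0) and Fabp5 (log axis) inside clusters with at least 100 cells of each kind and 20 UMIs of the gene, in cells without (open) and with (filled) uroplakin UMIs, with 95% counting intervals. Pparg is higher with uroplakin UMIs in P1 and D0, Fabp5 is lower with them in P1 (415 against 1047 CPM), and the intervals of Fabp5 overlap in D0 and D1.

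A split of P by the cornified envelope genes Flg and Crnn, chosen after the values by cluster had been seen, gave the same order. Flg was among the 10 leading genes of P1, so this split overlaps that cluster and is not independent of it. Cells with a UMI of either gene were deeper, with a median of 4278 against 3142 UMIs. The 1927 cells with a UMI of either gene had 975 CPM of Fabp5 (956 to 995) and the other 4891 had 362 CPM (353 to 371). In both kinds, cells with uroplakin UMIs were lower, at 468 against 1043 CPM with and 174 against 368 CPM without Flg or Crnn UMIs. Pparg was higher with uroplakin UMIs on both sides of this split, at 30.2 CPM (21.1 to 42.1) against 20.7 CPM (17.8 to 24.0) with overlapping intervals, and at 30.9 CPM (17.7 to 50.2) against 5.82 CPM (4.71 to 7.12). In D only 11 cells had a Flg or Crnn UMI.

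Fabp4 (ENSMUSG00000062515), on the minus strand of chromosome 3, 10204088 to 10208576, encodes the binding protein of fat cells and a standard readout of PPARγ. It was rare. In P, 46 cells held 67 UMIs, or 2.51 CPM (1.95 to 3.19), and in D 8 cells held 22 UMIs, or 1.08 CPM (0.679 to 1.64). One D cell with 13 uroplakin UMIs carried 12 of the 22, and without it the log2 ratio of D over P went from -1.21 (-1.98 to -0.50) to -2.35 (-3.47 to -1.38). In P, Fabp4 was at 10.2 CPM (5.91 to 16.3, 17 UMIs) with and 1.999 CPM (1.48 to 2.64) without uroplakin UMIs. In D, 21 of the 22 UMIs were in cells with uroplakin UMIs. By cluster, 64 of the 67 UMIs of P were in P1 (5.31 CPM, 4.09 to 6.77) and 19 of the 22 of D in D2 (4.16 CPM, 2.50 to 6.49), intervals that overlapped.

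Fabp4 is also a marker of fat cells and of capillary endothelium. Of 7 adipocyte markers, Adipoq, Cfd, Lep and Cidec were at 0 in both libraries, and of 8 endothelial markers Cdh5, Kdr, Emcn, Cldn5 and Tek were. Adrb3, another adipocyte marker, gave 98 UMIs in P and 45 in D. The cells with Fabp4 held 0 endothelial UMIs in both libraries. In P they held 5 adipocyte UMIs, or 18.6 CPM (6.03 to 43.3) against 3.90 CPM (3.18 to 4.73) in other cells, and 48.3 CPM of leukocyte markers (25.7 to 82.6) against 21.1 CPM (19.4 to 22.9). In D they held 0 adipocyte UMIs and 4 leukocyte UMIs, 54.7 CPM (14.9 to 140) against 26.8 CPM (24.6 to 29.1). These list sums rested on few genes. Over all kept cells of P, Adrb3 gave 98 of the 108 adipocyte UMIs and Cd68 545 of the 570 leukocyte UMIs. In D, Laptm5 gave 400 and Cd68 132 of the 546 leukocyte UMIs. The part of fat cells, endothelium or leukocytes in the Fabp4 counts was not tested. With all cells that held a UMI of an adipocyte, endothelial, leukocyte, fibroblast or muscle marker left out (771 in P, 1164 in D), Pparg stood at 11.2 and 33.1 CPM, Fabp5 at 590 and 62.7 CPM, Cpt1a at 9.20 and 40.2 CPM and Fabp4 at 2.16 and 0.548 CPM in P and D.

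The wider pathway was described by 9 lists of receptors, coregulators and fatty acid genes, 138 genes without the members. Of the 92 with at least 100 UMIs, 9 (9.78%) had at least 2-fold more in D and 2 (2.17%) had at least 2-fold less, which is below the 13.5% and 4.73% of all genes tested. Their median log2 ratio of 0.44 was 0.02 above the median gene, and with the libraries scaled by that median 3 genes were at least 2-fold higher in D (Dgat2, Srebf1 and Vnn1). The lists thus did not stand out from the rest of the genes, and most of their members differed less than Pparg, Plin2 and Cpt1a.

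Among lipid droplet genes, 1 of 9 tested was at least 2-fold higher and 1 lower. Dgat2, which makes triglyceride, went from 5.55 CPM in P to 17.8 CPM in D, and Lipe, the hormone-sensitive lipase, from 10.8 to 5.32 CPM. None of 9 genes of fatty acid binding, uptake and activation passed 2-fold, and Cd36, a fatty acid receptor and textbook target, gave 1 UMI in P and 0 in D. Of 19 mitochondrial β-oxidation genes, Eci1 passed (41.2 and 84.3 CPM in P and D), a call that ended under both other scalings, where 1 gene became at least 2-fold lower. Cpt2, the enzyme that acts after Cpt1a, was at 9.22 and 14.8 CPM. Of 10 peroxisomal genes, Hsd17b4 passed (18.03 and 42.2 CPM), which also ended under both.

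Fatty acid synthesis had 3 of 13 genes at least 2-fold higher in D and none lower, or 23.1% against 13.5% of all genes, and 1 of 13 with median ratio scaling. Scd2, a desaturase, was at 151 CPM in P and 393 CPM in D, Srebf1, the factor that switches on lipid synthesis, at 12.7 and 47.1 CPM, and Me1, a source of NADPH, at 15.8 and 42.0 CPM. Of 11 genes of pyruvate dehydrogenase and its control, Pdhx was at least 2-fold higher (5.32 and 10.9 CPM), a call that ended under both other scalings, and Pdk1 lower. Of 13 coregulators none passed. Of 8 tested textbook PPAR targets, Ucp2 (42.1 and 110.4 CPM) and Vnn1 (1.95 and 24.4 CPM) were at least 2-fold higher, but only Vnn1 with median ratio scaling. Vnn1, which encodes a pantetheinase, had a log2 ratio of 3.64 (3.23 to 4.09), above that of any member.

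**Figure D5:**
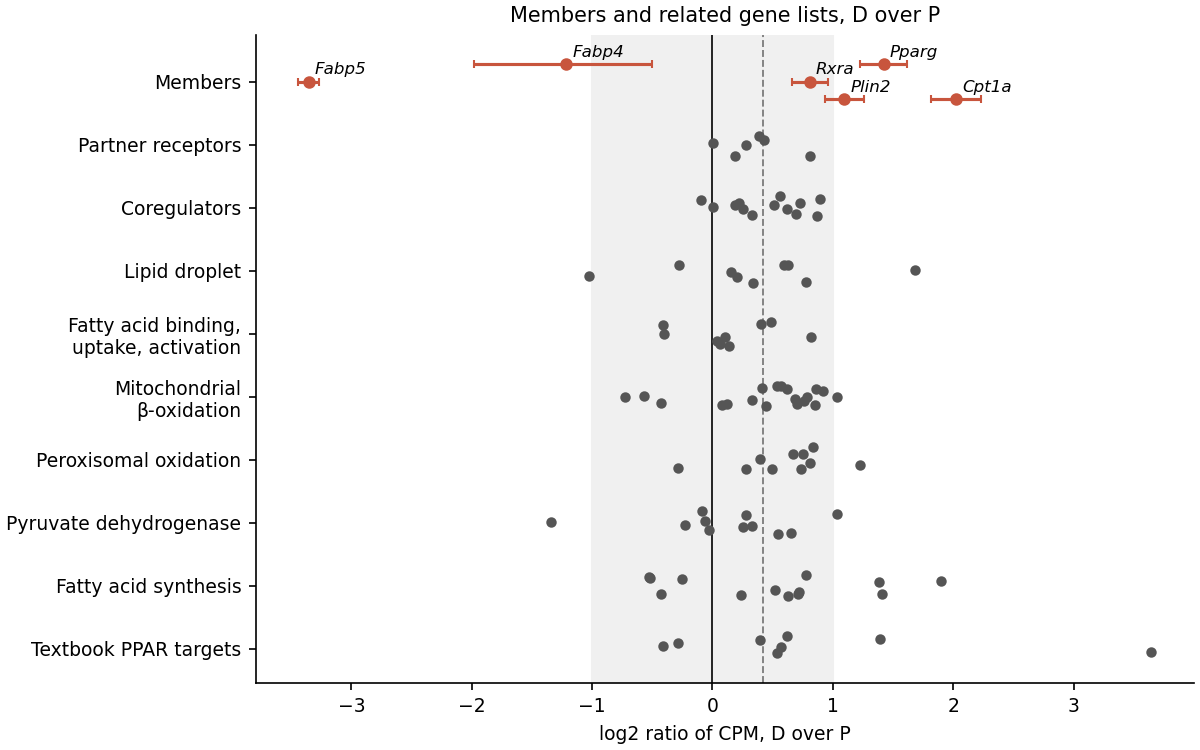
Log2 ratio of CPM, D over P, for the members (red, with 95% counting intervals, Fabp4 under the 100 UMI minimum) and for each gene of 9 related lists with at least 100 UMIs (grey). The grey band spans 2-fold in either direction and the dashed line marks the median gene at 0.42, around which most genes of the lists lie.

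Cells with uroplakin UMIs in D had 6 of 89 tested genes of these lists at least 2-fold higher (6.74%, against 3.73% of all genes) and 0 lower (3.27%). They were named after their values were seen. Vnn1 was at 33.2 CPM with and 4.36 CPM without uroplakin UMIs, Dgat2 at 22.9 and 6.30 CPM, and Ppargc1a, a coactivator of PPARγ, at 22.3 and 7.75 CPM. Fabp2, Fabp6 and Fads1 were the others, at 18.4, 19.3 and 28.3 CPM with and 6.46, 6.46 and 11.9 CPM without. In P, 1 of 66 was higher (1.52%, against 2.25%), the droplet gene Hilpda at 38.2 and 17.1 CPM, and 1 lower (1.52%, against 2.05%), Acaca, the gene of acetyl-CoA carboxylase, at 5.97 and 14.0 CPM.

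The genes whose levels most resembled each member were sought over 18 finer clusters, 9 in each library, by Pearson correlation of log2(CPM + 1) centred within the library, among 7221 genes. The clusters of a library share its depth and cells, so r is a description without a test. Pparg was most like Capn5 (r = 0.978), Smim14 (0.965) and Elf3 (0.9501), an epithelial transcription factor. Fabp5 was most like Phlpp1 (0.869), Cers3 (0.864), a ceramide synthase of skin, and Grhl3 (0.863), a transcription factor of stratified epithelia. Cpt1a was most like the heat shock gene Hspa1b (0.939), which is induced by stress, and then Lypd3 (0.879) and Iqgap1 (0.872). Hspa1b was at 68.3 CPM in P and 135 CPM in D and Iqgap1 at 129 and 242 CPM. Lypd3 went the other way, at 114.5 CPM in P and 74.5 CPM in D. Jak2 (0.839) and Pard3 (0.823) were among the genes most like Rxra, and Plin2 was most like Psma3 (0.881), Mtap (0.880) and Ywhaq (0.872). Among the members themselves, r with Pparg was 0.73 for Fabp5, 0.54 for Cpt1a, -0.09 for Rxra and -0.42 for Plin2.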

How the data were processed

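Whole-transcriptome single-cell RNA was measured in 1 P and 1 D library. Per the labels, the libraries were made with the 10x Chromium 3′ v3 kit, which tags transcript 3′ ends, so levels were not scaled by transcript length. The deposited matrices hold raw UMI counts per gene and barcode, which the authors made with bcl2fastq 2.19.0 and Cell Ranger 3.0.2 on GRCm38/mm10, without filtering or normalization. No gene overlapped a member on its strand in GENCODE M21.

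Kept cells were pooled per library, after the study's filter. Read as over 800 genes, as stated, it left 6818 cells in P, and as at least 800 genes 6826, the number the study gives. In D both left 4896. Genes needed 100 UMIs over both sides of a comparison (and 20 expected on the smaller side for uroplakin classes), and "called" means at least 2-fold. Intervals are exact at 95% (Poisson for CPM, Clopper-Pearson for shares, conditional binomial for ratios). A cell was uroplakin-positive with at least 1 UMI of Upk1a, Upk1b, Upk2, Upk3a or Upk3b. Clustering used Seurat 5.3.0 in R 4.3.3 with 2000 features, 25 (P) and 21 (D) components and resolution 0.2, or 1 for the likeness search (genes with 200 UMIs in each library). Other steps used Python 3.11.15, scanpy 1.11.5, NumPy 2.4.6, SciPy 1.17.1 and pandas 2.3.3, and were tested on simulated data. Scrublet's automatic threshold marked 0 cells in both libraries and did not work, so doublets were not removed, and leaving out the 6% of cells with the highest scores was tried instead.

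Named genes are the members, all partner receptors, up to 4 genes a list at least 2-fold higher in each library, the 3 most alike genes and leading genes of clusters. Others were chosen after their values were seen. One gene of the likeness search is not reported here. Members and lists were chosen with earlier results of these data known. Alternatives covered cell filters, scaling, averaging, thinning, doublets, deep cells, the uroplakin definition and the UMI minimum.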

Additional observations from a re-analysis of the deposited data

Results flagged for a closer look

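Fabp5 was flagged because its log2 ratio between cells with and without uroplakin UMIs was negative in P (-0.6771) and positive in D (1.491), both with counting intervals away from 0. The difference was not tested.

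Barcodes outside the filter (1376 in P, 2079 in D) also held UMIs of 5 of the 7 members above what a count of 0 allows. Per 1000000 non-mitochondrial UMIs, Pparg was at 10.04 in the left-out barcodes of P (13.0 in kept cells) and at 23.17 in those of D (35.3 in kept cells). Fabp5 was at 219.9 (625 kept) and 27.51 (62.0 kept), and Plin2 at 13.55 (20.95 kept) and 39.58 (45.4 kept). Rxra was at 31.12 (26.5 kept) and 59.85 (47.1 kept), and Cpt1a at 12.55 (10.2 kept) and 56.95 (41.9 kept). Fabp5 and Pparg in D had intervals below those of kept cells, Fabp5 also in P, while Cpt1a in D (47.1 to 68.2) had one above that of kept cells (39.0 to 44.9).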

How the results depend on the processing

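No paired analysis was possible because each group is 1 library. The alternatives over whole libraries kept the sign of each member's ratio where its interval excluded 0, and 41 of 54 D over P ratios and 123 of 131 uroplakin ratios moved by no more than the counting interval. Without mitochondrial and ribosomal protein genes in the totals, log2 D over P was 1.087 for Pparg, 0.4754 for Rxra, 0.7613 for Plin2, 1.69 for Cpt1a and -3.687 for Fabp5. With median ratio scaling it was 1.001, 0.3888, 0.6747, 1.603 and -3.774, so Plin2 fell under 2-fold in both. Fabp5 was at -3.522 under a filter of over 1000 genes and at most 10% mitochondrial UMIs and at -3.48 as a mean over cells, and Fabp4 at -2.293 without the deepest 5% of cells. The uroplakin ratio of Fabp5 in P was -0.8414 without mitochondrial and ribosomal genes, -0.8099 at equal depth, -0.9212 without the deepest cells and -0.4784 for cells with at least 2 uroplakin UMIs, and in D 1.212 at equal depth. That of Pparg in P was 2.21 at equal depth and 2.019 with at least 2 uroplakin UMIs, and that of Rxra in P -1.067 at equal depth, on 4 UMIs. Inside D0, an alternative added after seeing the data, Fabp5 turned to -0.2062 and Pparg was 0.8527. Inside P1 the ratios were 0.824 (Pparg), 1.288 (Fabp4) and -1.336 (Fabp5), and inside D1 0.1148 (Plin2) and 0.908 (Fabp5). Without thinning, shares of P cells with a UMI were 4.327% (Pparg), 9.167% (Rxra), 7.319% (Plin2), 0.6747% (Fabp4), 49.49% (Fabp5) and 3.637% (Cpt1a), and of D cells 10.87%, 16.03%, 14.97%, 12.77% (Fabp5) and 13.97% (Cpt1a). The 9 lists had 14 genes higher in D with a minimum of 1 UMI and 3 with median ratio scaling, in place of 9, and 4 (minimum of 20 UMIs) and 11 (1 UMI) higher in P, in place of 2.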

Other observations

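Several related genes were followed over the clusters after their values by library were known. Vnn1, Dgat2, Me1 and Hilpda had the order of Pparg at the top, with D2 first, D0 next and P1 the highest of P. Fabp2, Fabp6 and Slc27a4 did not, and Dbi and Acaa1b did so only in part. Vnn1 was at 75.5 CPM (67.7 to 83.9) in D2, 12.3 CPM in D0 and 1.70 CPM in D1, and at 3.56 CPM in P1. Dgat2 was at 30.6 CPM in D2, 18.6 in D0, 1.45 in D1 and 9.20 in P1, and Me1 at 69.4, 40.3, 16.2 and 23.9 CPM. The coactivator gene Ppargc1a was at 22.3 CPM in D2 and 20.8 CPM in D0, with overlapping intervals, and at 4.60 CPM in D1. Hilpda was at 42.02, 30.7, 22.5 and 23.04 CPM in D2, D0, D1 and P1. Fabp2 was highest in P1 at 27.7 CPM, against 18.9 CPM in D0 and 15.8 CPM in D2. Fabp6 was at 28.02 CPM in P1, 23.6 in D2 and 17.1 in D0, where P1 and D2 overlapped. For Slc27a4, P1 (39.95 CPM), D2 (38.3 CPM) and D0 had overlapping intervals. Dbi and Acaa1b had D2 and D0 first, but P3 was the highest of P (385 and 1.25 CPM, the latter on 2 UMIs).

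Srebf1 and Scd2, both of fatty acid synthesis, had another order, higher in all 3 clusters of D than in all 4 of P, as Rxra and Cpt1a were. This order is in CPM, not scaled by the median gene, which was 0.42 higher in D on the log2 scale. Srebf1 was at 51.1, 39.5 and 44.0 CPM in D0, D1 and D2 and between 11.6 and 14.3 CPM in the clusters of P. Scd2 was at 392, 341 and 443 CPM in D0, D1 and D2 and between 104 and 199.6 CPM in the clusters of P.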
